A study of Mus musculus with 8 samples.

Results

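DNA replication and nucleotide synthesis genes are the machinery of S phase, the stage of the cell cycle in which the genome is copied. The 45 genes described here were chosen by symbol, by their known roles in helicase function, origin licensing, polymerisation, clamp loading, nucleotide supply and chromatin assembly. The deposited tables listed 53379 genes, of which 14991 passed a filter on low counts and were tested. All 45 replication genes passed it.

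Before S phase, the origin recognition complex, Cdc6 and Cdt1 load the ring of Mcm2 to Mcm7 onto DNA, a step called licensing. Cdc45 and the GINS complex then turn that ring into an active helicase, after which polymerase alpha-primase starts the new strands, polymerases epsilon and delta extend them, and the clamp Pcna, loaded by the RFC complex, holds the polymerases on the template. Many of these genes are switched on together by E2F transcription factors as a cell leaves G1. In the colon, cell division takes place in the lower crypt, and cells stop dividing as they move up to the luminal surface.

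RNA was measured by sequencing of intestinal epithelial cells from the distal colon of C57BL/6 mice, shaken off washed pieces of tissue. Mice carrying floxed alleles of Rora (RORaf/f, called WT here) were compared with mice lacking the gene in the intestine (RORaΔIEC, called KO). Rora encodes the nuclear receptor ROR alpha, a transcription factor. Each genotype was left untreated or drank dextran sulfate sodium (DSS), which damages the epithelium of the colon. Per the labels' protocols, the water held 2% DSS (w/v) for 5 days and none for the 3 days of recovery that followed. This gave 4 groups of 2 libraries each. The labels give neither the Cre driver nor the age of the mice. Nothing in them says that the 2 libraries of a group came from separate animals, so the p-values rest on the spread between samples alone, and that spread may be technical.

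Library totals ran from 15971642 to 20418466 expected counts. The counts of Rora were 12 and 6 without and 16 and 14 with DSS in WT, and 4 and 3 without and 8 and 5 with DSS in KO. Its log2 fold change in KO was -1.10 ± 0.58 (SE) without DSS (edgeR adjusted p = 0.238) and -1.24 ± 0.45 with DSS (edgeR adjusted p = 0.0425). The general epithelial marker Epcam lay between 1600 and 1860 counts-per-million (CPM) in all libraries. The list of 8 such markers was less even, summing to 14341 and 14412 CPM in untreated WT and 16479 and 16599 CPM in untreated KO. With DSS it summed to 13800 and 13912 CPM in WT and 14526 and 15312 CPM in KO. At an edgeR adjusted p below 0.05, 4 of the 8 were higher and 0 lower in KO without DSS. With DSS, 2 were higher and 2 lower. The shares of all genes tested were 9.19% higher and 6.22% lower without DSS, and 21.3% and 17.7% with DSS. Mitochondrial genes took 4.91% and 5.29% of counts in DSS-treated KO and 7.23% to 8.05% in the other libraries. The summed level of 4 pan-leukocyte markers lay between 7.04 and 8.81 CPM in the untreated libraries, and was 22.8 and 20.3 CPM in DSS-treated WT and 41.3 and 42.1 CPM in DSS-treated KO. In such bulk samples, fewer cells of a type and less RNA per cell cannot be told apart, and the same holds for more of either.

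Replication genes were higher in KO than in WT, and the gap was wider after DSS. Summed over the 45 genes, the level stood at 1153 and 1143 CPM without and 801 and 788 CPM with DSS in WT, and at 1510 and 1528 without and 1509 and 1525 with DSS in KO. In CPM, DSS-treated WT was thus the low group, and the 2 KO groups overlapped. The KO groups did not overlap in sums of the deposited TPM (transcripts-per-million). Those sums were 1034 and 1036 without and 1155 and 1164 with DSS in KO. By group mean, DSS-treated WT was lowest for 42 of the 45 genes, and untreated WT was lowest for the other 3, which were Orc1, Mcm10 and Pold3. The highest group was untreated KO for 22 genes and DSS-treated KO for 23. The commonest order, found for 18 genes, ran from DSS-treated WT through untreated WT and untreated KO to DSS-treated KO, and 17 genes had the same order with the KO groups exchanged.

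**Figure D1:**
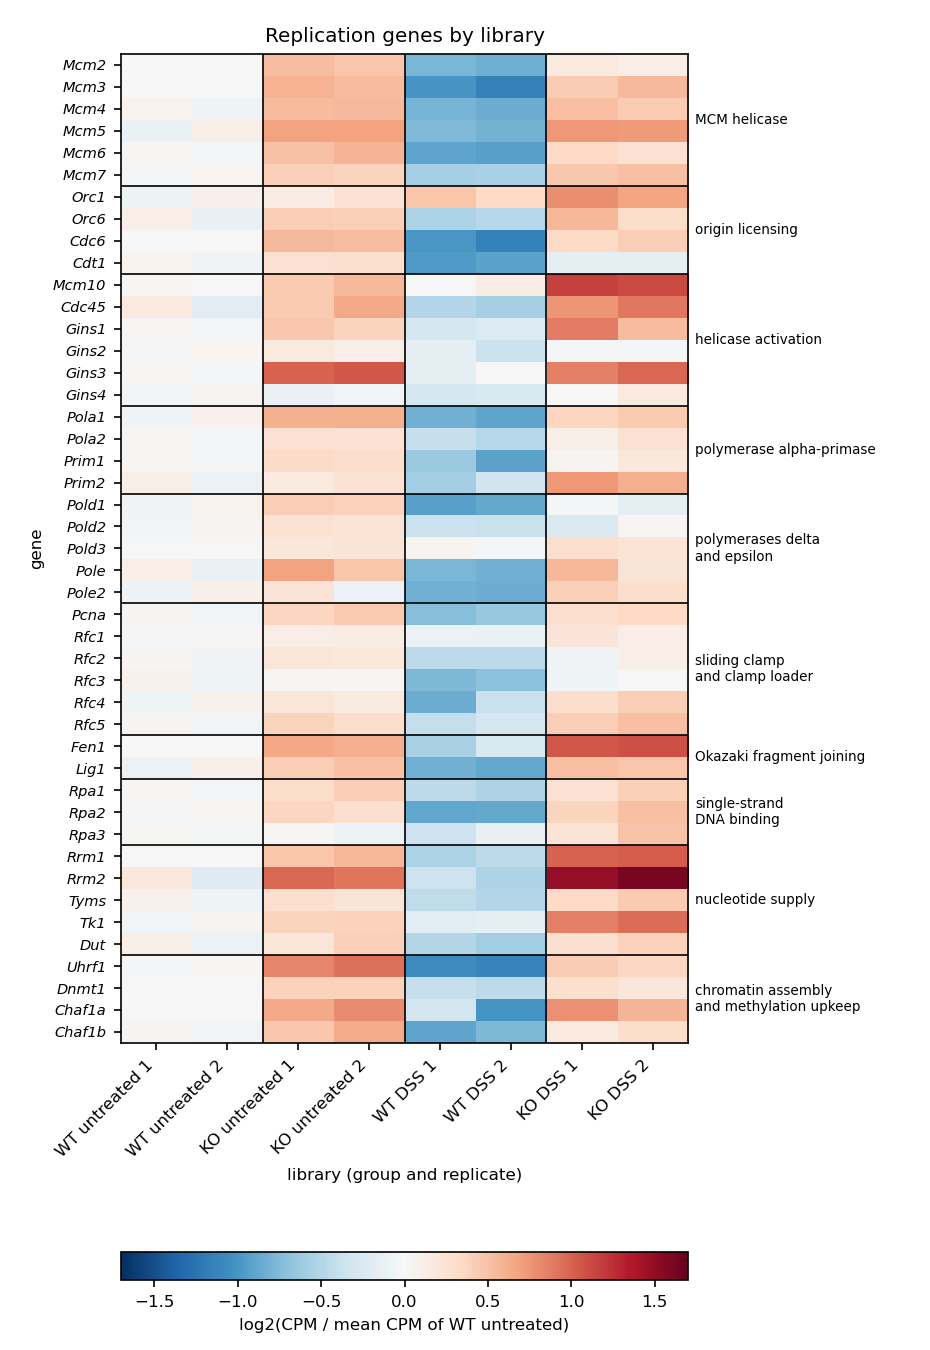
Level of each of the 45 replication genes (rows, grouped by role) in each of the 8 libraries (columns), as log2 of CPM over the mean CPM of the 2 untreated WT libraries, with blue below and red above that mean. The columns of DSS-treated WT are blue for all but a few rows, Orc1 among them, and those of both KO groups are mostly red.

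Without DSS, 33 of the 45 genes were higher in KO and none was lower. A gene is called higher or lower where its edgeR adjusted p, corrected over all genes tested, was below 0.05. Of all genes tested, 15.4% were called in this comparison, 9.19% as higher and 6.22% as lower. The median log2 fold change was 0.39 over the 45 genes and 0.01 over all genes tested. Values ran from -0.08 for Gins4, a GINS subunit, to 1.03 for Gins3, which was the only gene called at 2-fold or more. All 6 Mcm helicase genes, both genes of Okazaki fragment joining, all 5 of nucleotide supply and all 4 of chromatin assembly and methylation upkeep were higher. The clamp and its loader had 2 of 6 called, Pcna and Rfc5. The 12 genes not called were Orc1, Gins1, Gins2, Gins4, Prim2, Pold2, Pole2, Rfc1, Rfc2, Rfc3, Rfc4 and Rpa3. The count fell to 21 when replicate 2 of untreated KO was left out, and 15 of the 33 calls were lost without at least 1 library. Those 15 were Cdc6, Cdt1, Cdc45, Orc6, Pola2, Prim1, Pold3, Pole, Rfc5, Rpa1, Rpa2, Tyms, Dut, Chaf1a and Chaf1b. Some markers of non-epithelial cells were also called here: 2 of 4 tested fibroblast markers (Col3a1 and Dcn) and 1 of 10 macrophage and monocyte markers (Mrc1) were higher in KO, and both tested endothelial markers (Pecam1 and Vwf) were lower. Their part in the difference between genotypes without DSS was not tested.

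After DSS, all 45 genes were higher in KO than in WT. Of all genes tested, 39.1% were called in this comparison, 21.3% as higher and 17.7% as lower. The median log2 fold change was 0.99 over the 45 genes and -0.01 over all genes tested. It ran from 0.24 for Gins2 to 1.99 for Rrm2, the regulatory subunit of ribonucleotide reductase, and 21 genes were called at 2-fold or more. The calls of Gins2, Orc1 and Pold2 were lost without at least 1 library, with an edgeR or DESeq2 adjusted p of up to 0.133, 0.16 and 0.304. Leukocyte markers also differed here, with 4 of 4 pan-leukocyte markers higher in KO. Of 10 neutrophil markers, 7 could be tested and all 7 were higher in KO, and the defining neutrophil gene S100a8 was at 1.68 and 2.00 CPM in DSS-treated WT and at 52.9 and 58.3 CPM in DSS-treated KO. The 10 neutrophil markers summed to 85.8 to 99.3 CPM without DSS, nearly all of it Ly6g (85.7 to 99.2 CPM), with 7 of 10 at 0 in untreated WT and 8 in untreated KO. They summed to 51.3 and 54.8 CPM in DSS-treated WT and to 285 and 311 CPM in DSS-treated KO. The lower sum in DSS-treated WT hides rises of most tested markers. By DSS in WT, 5 of the 7 tested were higher and 1 lower, with a median log2 fold change of 6.43. The part of leukocytes in the difference between genotypes after DSS was not tested. In the untreated libraries S100a8 was at 0, and none of the 4 pan-leukocyte markers was called between genotypes.

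**Figure D2:**
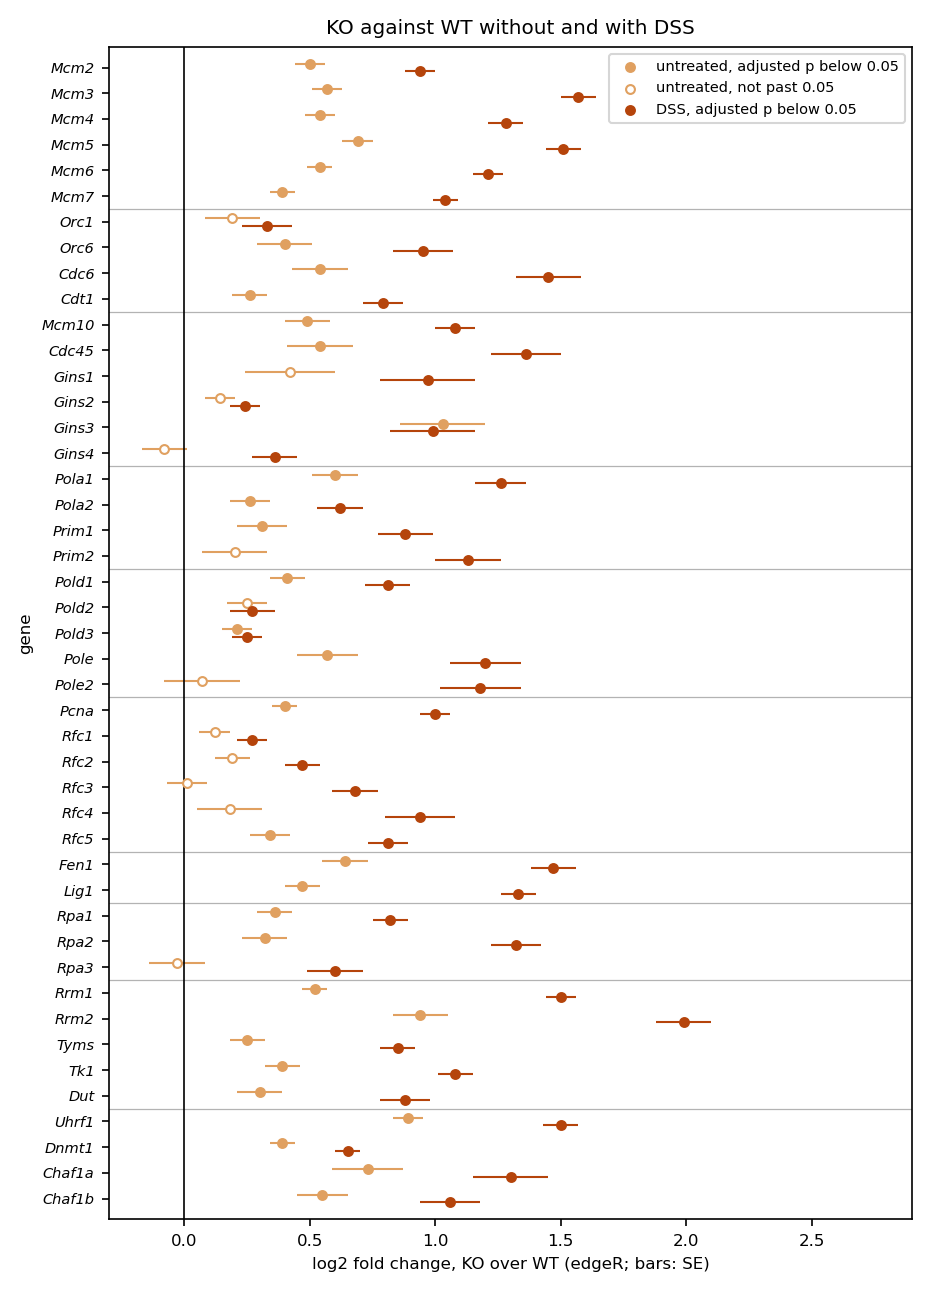
Log2 fold change of KO over WT for each replication gene, without DSS (light, open where the edgeR adjusted p was not below 0.05) and after DSS (dark), with bars of 1 SE. All dark points lie above 0, and for every gene but Gins3 the dark point lies to the right of the light one.

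In WT, 37 of the 45 genes were lower after DSS, 1 was higher and 7 were not called. Of all genes tested, 37.2% were called, 18.9% as higher and 18.3% as lower. The median log2 fold change was -0.53 over the 45 genes and -0.01 over all genes tested. The largest falls were those of Uhrf1 (-1.10), Mcm3 (-1.08) and Cdc6 (-1.07), each more than 2-fold. Mcm10, Gins1, Gins3, Pold3, Rfc1, Rpa3 and Tk1 were not called. Calls of 11 genes were lost without at least 1 library: Cdc45, Gins2, Gins4, Orc1, Orc6, Prim2, Rfc4, Rfc5, Fen1, Rrm2 and Chaf1a.

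In KO the calls by DSS went in both directions. After DSS, 8 genes were higher, 9 were lower and 28 were not called. The share of all genes tested that was called was 41.6%, with 21.7% higher and 19.8% lower. The 45 genes were thus called about as often as genes in general, in either direction. The median log2 fold change was 0.03 over the 45 genes and 0.00 over all genes tested, and it was -0.05 without replicate 1 of untreated KO. The 8 higher genes were Orc1, Mcm10, Prim2, Fen1, Rpa3, Rrm1, Rrm2 and Tk1. The 9 lower genes were Mcm2, Mcm6, Cdt1, Gins2, Pold1, Pold2, Uhrf1, Dnmt1 and Chaf1b. Calls of Gins2, Prim2, Rpa3, Dnmt1 and Chaf1b were lost without at least 1 library. Of the genes that were lower in WT after DSS, 24 were not called in KO, 9 were lower in KO too and 4 were higher in KO, namely Prim2, Fen1, Rrm1 and Rrm2.

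The interaction compares these DSS changes directly, as the log2 fold change by DSS in KO minus that in WT. It was positive and past the threshold for 36 of the 45 genes and negative for none of those called. Of all genes tested, 21.4% were called, 10.8% as positive and 10.6% as negative. The median was 0.60 over the 45 genes and 0.01 over all genes tested. The largest values were those of Pole2 (1.11), Rrm2 (1.05) and Mcm3 (1.00). Not called were Orc1, Gins1, Gins2, Gins3, Pold2, Pold3, Rfc1, Rfc2 and Chaf1a. The interaction uses the same libraries as the comparisons above, and 30 of the 33 genes that were higher in KO in both treatments also had a positive interaction. Calls of 12 genes were lost without at least 1 library: Cdc45, Gins4, Orc6, Pola2, Prim1, Pold1, Pole, Rfc4, Rfc5, Rpa3, Dnmt1 and Chaf1b.

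**Figure D3:**
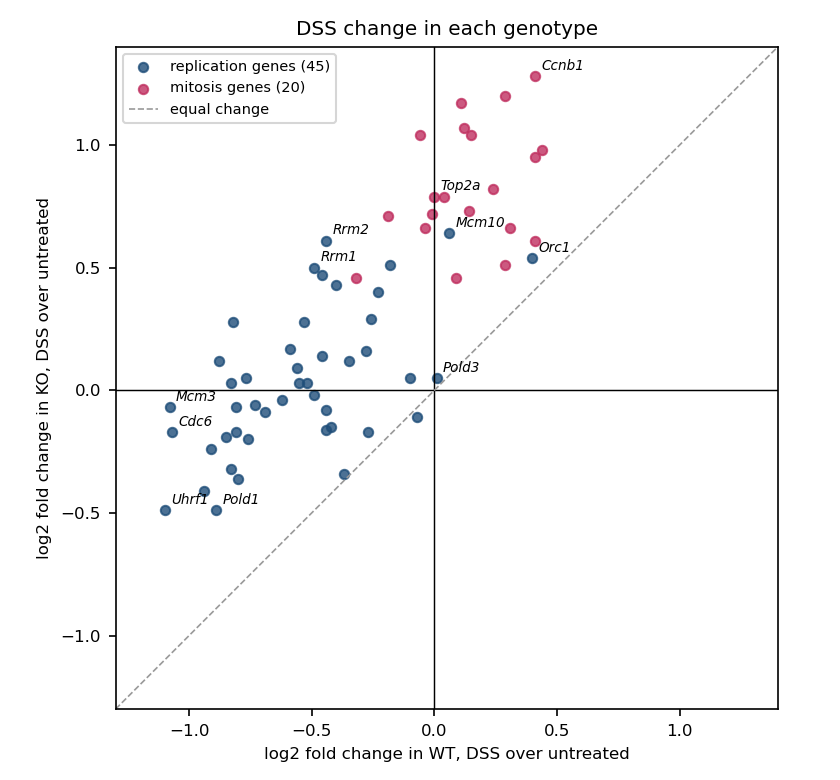
Log2 fold change by DSS in WT (horizontal) and in KO (vertical) for the 45 replication genes (blue) and 20 mitosis genes (pink), with a dashed line of equal change. Most blue points lie left of 0 on the WT axis and near 0 on the KO axis, while the pink points lie above 0 on the KO axis, all at 0.46 or more.

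The promoters of 38 of the 45 genes could be read from RefSeq (build GRCm38.p6), as windows of 300 bases from 250 before the transcription start to 50 after it. Mcm4, Gins1, Gins2, Gins4, Prim2, Pole and Rfc2 were not matched. An E2F-type core (TTCCCGC or TTGGCGC, on either strand) was found in at least 1 window of 23 of the 38 genes (60.5%), against 7.79% of the 27025 genes with a window. The list was chosen by roles in S phase, where many genes are known to be driven by E2F, so this contrast describes the choice and is no test. The 27025 genes were not limited to those that passed the count filter. Of the 38 genes, 6 had more than 1 window, and Lig1 and Dnmt1 count among the 23 only through the third of their windows. Counted by window, the core was in 24 of 46 (52.2%) against 6.81% of 32851. The CCAAT core of NF-Y, on either strand, was in 24 of the 38 genes (63.2%) against 41.1%. TTTGAA, the cell cycle homology core known from genes of G2 and mitosis, was in 6 of the 38 genes (15.8%) against 20.2%, on either strand. The median GC content of the first window listed for a gene was 59.2% over the 38 genes and 52.7% over all genes, and its part in these shares was not tested. The median log2 fold change by DSS in WT was -0.77 over the 23 genes with an E2F-type core and -0.44 over the 15 without one. With and without a core, the medians were 0.41 and 0.39 in KO against WT without DSS, 1.06 and 0.94 after DSS, -0.06 and 0.12 for DSS in KO, and 0.65 and 0.57 for the interaction.

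Shown next are 120 bases of 6 promoters, each read 5′ to 3′ on the strand of its gene, with E2F-type cores in capitals. Mcm5 and Mcm6 hold 2 cores each and stand for the helicase. Rrm1 and Uhrf1 hold 1 each and changed in different directions after DSS in KO. Rrm2 and Orc1 hold none in the windows searched, and they had the largest KO to WT difference after DSS and the only rise after DSS in WT, respectively. A match is a description of the letters and not a shown binding site, and its absence does not show that a site is lacking. Only exact matches to the 2 core sequences were searched. The letters ggcgcgaaaa in the Orc1 segment, for example, are also those of Mcm6 from the third base of its first core on. The segments are, in the order given, chr8:75109339-75109458, chr1:128359706-128359825, chr7:102441575-102441694, chr17:56303217-56303336, chr12:24708134-24708253 and chr4:108579334-108579453. Mcm6 is read from the minus strand and the others from the plus strand, and RefSeq starts can differ from the GENCODE gene starts given elsewhere.
Mcm5: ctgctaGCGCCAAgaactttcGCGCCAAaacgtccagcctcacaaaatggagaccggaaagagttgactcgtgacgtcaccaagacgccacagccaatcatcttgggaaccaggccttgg
Mcm6: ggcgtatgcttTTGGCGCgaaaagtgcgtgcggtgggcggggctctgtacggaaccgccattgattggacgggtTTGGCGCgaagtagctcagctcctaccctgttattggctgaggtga
Rrm1: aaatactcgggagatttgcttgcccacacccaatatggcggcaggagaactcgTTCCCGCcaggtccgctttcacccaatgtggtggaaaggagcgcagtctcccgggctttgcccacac
Uhrf1: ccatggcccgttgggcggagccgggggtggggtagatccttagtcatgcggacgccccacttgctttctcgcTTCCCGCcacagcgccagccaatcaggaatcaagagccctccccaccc
Rrm2: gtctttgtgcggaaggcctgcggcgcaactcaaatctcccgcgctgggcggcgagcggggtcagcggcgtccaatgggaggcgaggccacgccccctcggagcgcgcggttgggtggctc
Orc1: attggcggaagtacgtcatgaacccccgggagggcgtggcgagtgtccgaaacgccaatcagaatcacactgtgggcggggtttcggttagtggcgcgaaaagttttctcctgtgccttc

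All 6 genes of the Mcm helicase, the motor that unwinds DNA at the fork, were higher in KO with and without DSS and lower after DSS in WT. Its 6 summed genes were at 245 and 249 CPM without and 143 and 139 CPM with DSS in WT, and at 358 and 358 without and 336 and 334 with DSS in KO. Mcm5 (ENSMUSG00000005410.6, mm10 chromosome 8, 75109569 to 75128439) was at 37.5 and 43.4 CPM without and 24.1 and 23.1 CPM with DSS in WT, and at 64.8 and 65.0 without and 67.8 and 66.8 with DSS in KO. Both WT groups lay apart from each other and below both KO groups, which differed by little. Its log2 fold change in KO was 0.69 ± 0.06 (SE, n = 2 against 2) without DSS (edgeR adjusted p = 6.59e-06) and 1.51 ± 0.07 with DSS (edgeR adjusted p = 1.2e-09). By DSS it was -0.77 ± 0.07 in WT (edgeR adjusted p = 2.13e-06) and 0.05 ± 0.06 in KO (edgeR adjusted p = 0.534). Its promoter held the pair of GCGCCAA cores shown above.

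Mcm3 (chromosome 1, 20802968 to 20820312), another subunit of the ring, was at 33.0 and 33.6 CPM without and 16.6 and 15.0 CPM with DSS in WT, and at 50.2 and 48.5 without and 44.8 and 49.0 with DSS in KO. The KO groups overlapped, and DSS-treated WT was far below the rest. The gap between genotypes after DSS was 2.97-fold (log2 fold change 1.57 ± 0.07, edgeR adjusted p = 1.32e-09), and the interaction was 1.00 ± 0.10 (edgeR adjusted p = 8.43e-06). Mcm6, the most abundant of the 6 by count, was at 61.9 and 59.1 CPM without and 32.4 and 31.8 CPM with DSS in WT, and at 85.8 and 89.9 without and 76.2 and 72.7 with DSS in KO. Its 4 groups did not overlap, and DSS-treated KO lay below untreated KO. That fall of 0.24 on the log2 scale (SE 0.05, edgeR adjusted p = 0.00154) and one of 0.36 for Mcm2 (SE 0.06, edgeR adjusted p = 0.000101) were the only calls by DSS in KO within the helicase. Mcm2 was at 36.3 and 36.4 CPM without and 21.2 and 20.5 CPM with DSS in WT, and at 52.6 and 50.3 without and 40.7 and 39.3 with DSS in KO. Mcm4 and Mcm7 had log2 fold changes of 0.54 and 0.39 in KO without DSS and of 1.28 and 1.04 with DSS.

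Origin licensing held the gene that went against the rest. Orc1 (ENSMUSG00000028587.18, chromosome 4, 108579423 to 108614833) encodes the largest subunit of the origin recognition complex. It was at 8.76 and 9.92 CPM without and 12.9 and 11.8 CPM with DSS in WT, and at 10.2 and 11.1 without and 16.1 and 14.9 with DSS in KO. Its groups rose from untreated WT through untreated KO and DSS-treated WT to DSS-treated KO, without overlap. It was higher after DSS in WT (log2 fold change 0.40 ± 0.11, edgeR adjusted p = 0.00848) and in KO (0.54 ± 0.10, edgeR adjusted p = 0.000667), and the interaction was 0.13 ± 0.15 (edgeR adjusted p = 0.568). The call in WT was lost without replicate 1 of untreated WT, without replicate 1 of DSS-treated WT and with DESeq2, with an adjusted p of up to 0.0967.

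Cdc6, the loading factor that brings the Mcm ring to the origin complex, was at 7.01 and 6.89 CPM without and 3.49 and 3.12 CPM with DSS in WT, and at 10.2 and 9.98 without and 8.75 and 9.27 with DSS in KO. Its 4 groups did not overlap, and DSS-treated WT had less than any other group. It was 2.72-fold higher in KO after DSS (log2 fold change 1.45 ± 0.13, edgeR adjusted p = 1.15e-06), with an interaction of 0.91 ± 0.18 (edgeR adjusted p = 0.00261). Cdt1, its partner in loading, was at 22.3 and 20.6 CPM without and 11.0 and 11.4 CPM with DSS in WT, and at 25.7 and 25.8 without and 19.3 and 19.3 with DSS in KO. DSS-treated KO thus lay below untreated WT, an order of group means found for 5 of the 45 genes. Cdt1 was lower after DSS in WT (-0.94 ± 0.08, edgeR adjusted p = 9.33e-07) and in KO (-0.41 ± 0.07, edgeR adjusted p = 0.000435). The gene model Gm20388 overlaps the whole gene body of Cdt1 (5540 bases) on the same strand, though the counts of Cdt1 were whole in every library. Orc6, a smaller subunit of the origin complex, had log2 fold changes of 0.40 and 0.95 in KO without and with DSS.

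Of the 6 genes of helicase activation, 3 were higher in KO without DSS and all 6 with DSS. Mcm10, which helps the loaded ring start unwinding, was at 12.3 and 12 CPM without and 12 and 13.2 CPM with DSS in WT, and at 16.4 and 17.7 without and 27.0 and 26.3 with DSS in KO. The WT groups overlapped, whereas DSS-treated KO stood above all other libraries. By DSS its log2 fold change was 0.06 ± 0.09 in WT (edgeR adjusted p = 0.689) and 0.64 ± 0.08 in KO (edgeR adjusted p = 1.27e-05), and the interaction was 0.59 ± 0.12 (edgeR adjusted p = 0.00365). Cdc45, the helicase partner, was 1.36 ± 0.14 higher on the log2 scale in KO after DSS (edgeR adjusted p = 2.83e-06).

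The 4 GINS subunits work in 1 complex, and 1 of them, Gins3, was called in KO without DSS. Gins3 was at 2.60 and 2.47 CPM without and 2.28 and 2.53 CPM with DSS in WT, and at 5.08 and 5.26 without and 4.6 and 4.98 with DSS in KO. Both KO groups lay above both WT groups, and within WT the groups overlapped. Its log2 fold change in KO was 1.03 ± 0.17 without DSS (edgeR adjusted p = 0.000846) and 0.99 ± 0.17 with DSS (edgeR adjusted p = 0.000426), while the interaction was -0.04 ± 0.25 (edgeR adjusted p = 0.946). By DSS it was -0.07 ± 0.19 in WT and -0.11 ± 0.15 in KO. Gins2, by far the largest GINS count, was at 66.8 and 69.7 CPM without and 60.6 and 52.9 CPM with DSS in WT, and at 76.4 and 73.9 without and 67.1 and 66.6 with DSS in KO. Its groups lay close together, and DSS-treated KO overlapped untreated WT. The gene body of Gins2 overlaps Gse1 on the other strand in part and the gene model Gm20388 there over its whole length. Its expected counts were not whole in any library, so its level is uncertain. Gins1 and Gins4 had log2 fold changes in KO after DSS of 0.97 ± 0.19 and 0.36 ± 0.09.

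Polymerase alpha-primase lays down the RNA-DNA primers. Its catalytic subunit Pola1 was at 12.1 and 13.2 CPM without and 7.15 and 6.77 CPM with DSS in WT, and at 19.2 and 19.1 without and 16.2 and 17.2 with DSS in KO. No groups overlapped, and the log2 fold change in KO was 0.60 ± 0.09 without DSS (edgeR adjusted p = 0.00026) and 1.26 ± 0.10 with DSS (edgeR adjusted p = 2.03e-07). Pola2, its accessory subunit, was at 16.7 and 16.2 CPM without and 12.6 and 11.8 CPM with DSS in WT, and at 19.8 and 19.6 without and 17.7 and 19.7 with DSS in KO. The KO groups overlapped. Its call without DSS (0.26 ± 0.08, edgeR adjusted p = 0.0469) was lost in 11 alternatives, the replicate block among them, whereas its difference after DSS (0.62 ± 0.09, edgeR adjusted p = 6.78e-05) was called in every alternative. Prim2, the large primase subunit, was lower after DSS in WT (-0.46 ± 0.14, edgeR adjusted p = 0.0172) and higher in KO (0.47 ± 0.12, edgeR adjusted p = 0.00538). These calls were each lost without at least 1 library, with an adjusted p of up to 0.151 and 0.0679 over the alternatives. Prim1, the catalytic primase subunit, was at -0.76 ± 0.11 by DSS in WT (edgeR adjusted p = 9.44e-05) and -0.20 ± 0.10 in KO (edgeR adjusted p = 0.112).

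Among the replicative polymerases, delta extends the lagging strand and epsilon the leading strand. Pold1, the catalytic subunit of delta, was at 21.6 and 23.5 CPM without and 11.9 and 12.4 CPM with DSS in WT, and at 30.2 and 29.7 without and 22.2 and 20.4 with DSS in KO. Its level in DSS-treated KO overlapped that of untreated WT. It was lower after DSS in WT (-0.89 ± 0.08, edgeR adjusted p = 2.05e-06) and in KO (-0.49 ± 0.07, edgeR adjusted p = 0.000102), the latter at an adjusted p of 0.0668 with effective-length offsets. Pold3, an accessory subunit of delta, was at 37.6 and 37.4 CPM without and 38.8 and 36.8 CPM with DSS in WT, and at 42.9 and 43.6 without and 45.6 and 44.2 with DSS in KO. It did not pass the threshold for DSS in either genotype, with log2 fold changes of 0.01 ± 0.06 and 0.05 ± 0.06. Pold2, another accessory subunit, was lower after DSS by similar amounts in WT (-0.37 ± 0.09) and KO (-0.34 ± 0.08), with an interaction of 0.02 ± 0.12 (edgeR adjusted p = 0.921).

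Pole2, an accessory subunit of epsilon (chromosome 12, 69201773 to 69228195), had the largest interaction of the set. It was at 5.36 and 6.05 CPM without and 3.24 and 3.18 CPM with DSS in WT, and at 6.67 and 5.33 without and 7.54 and 7.04 with DSS in KO. The untreated groups overlapped, and the DSS-treated groups lay apart, with KO the higher. The log2 fold change in KO was 0.07 ± 0.15 without DSS (edgeR adjusted p = 0.8) and 1.18 ± 0.16 with DSS (edgeR adjusted p = 5.04e-05), and the interaction was 1.11 ± 0.22 (edgeR adjusted p = 0.00309). That interaction was lost with effective-length offsets (adjusted p = 0.111), and Pole2 overlaps the gene model Gm49384 on its own strand, with counts that were not whole in 7 libraries. Pole, the catalytic subunit, was higher in KO by 1.20 ± 0.14 on the log2 scale after DSS (edgeR adjusted p = 9.05e-06).

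Pcna, the sliding clamp, had the largest count of the 45 genes. It was at 87.3 and 82.3 CPM without and 51.3 and 54.2 CPM with DSS in WT, and at 109 and 115 without and 103 and 107 with DSS in KO. DSS-treated WT was well below the other groups, and the KO groups did not overlap but lay close. The log2 fold change by DSS was -0.69 ± 0.06 in WT (edgeR adjusted p = 3.9e-07) and -0.09 ± 0.05 in KO (edgeR adjusted p = 0.191). It was 2.00-fold higher in KO after DSS (1.00 ± 0.06, edgeR adjusted p = 6.55e-09). Its counts were not whole in any library, so some of its reads were shared with other loci. Among the loader genes Rfc1 to Rfc5, only Rfc5 was called in KO without DSS. That call was lost in 4 alternatives, the DESeq2 Wald test and effective-length offsets among them. The counts of Rfc5 were not whole in any library either. All 5 were higher in KO after DSS, by 0.27 for Rfc1 to 0.94 for Rfc4. The call of Rfc1 there was lost with effective-length offsets (edgeR adjusted p = 0.23). Rfc4 was at 0.18 ± 0.13 without DSS and 0.94 ± 0.14 with DSS, with an interaction of 0.76 ± 0.19 (edgeR adjusted p = 0.0119) that was lost without replicate 1 of DSS-treated WT (adjusted p of up to 0.0657 over the alternatives). Rfc3 was at 0.01 ± 0.08 without DSS and 0.68 ± 0.09 with DSS, and its interaction was 0.67 ± 0.12 (edgeR adjusted p = 0.00143).

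Okazaki fragments, the short pieces of the lagging strand, are trimmed by the nuclease Fen1 and joined by the ligase Lig1. Fen1 was at 15.5 and 15.7 CPM without and 10.6 and 13 CPM with DSS in WT, and at 24.6 and 24.0 without and 32.3 and 33.2 with DSS in KO. DSS-treated KO was the highest group and DSS-treated WT the lowest, with no overlap. Its log2 fold change by DSS was -0.40 ± 0.10 in WT (edgeR adjusted p = 0.0053) and 0.43 ± 0.08 in KO (edgeR adjusted p = 0.000456). Lig1 was at 32.6 and 36.9 CPM without and 19.8 and 19.1 CPM with DSS in WT, and at 46.6 and 49.2 without and 49.5 and 48.1 with DSS in KO. The KO groups overlapped, and the interaction was 0.86 ± 0.10 (edgeR adjusted p = 3.37e-05). The call of Fen1 in WT was lost without replicate 1 of DSS-treated WT (adjusted p = 0.0904), and its counts were not whole in any library.

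Replication protein A coats single-stranded DNA at the fork. Rpa1, its large subunit, was at 34.9 and 33.7 CPM without and 25.1 and 23.9 CPM with DSS in WT, and at 42.4 and 45.7 without and 41.1 and 45.6 with DSS in KO, so that the KO groups overlapped. The middle subunit Rpa2 showed a wider gap after DSS, with 7.21 and 7.30 CPM in WT and 17.3 and 18.9 CPM in KO (log2 fold change 1.32 ± 0.10, edgeR adjusted p = 1.09e-07). Rpa1 differed by 0.82 ± 0.07 in the same comparison (edgeR adjusted p = 5.71e-07), and the small subunit Rpa3 by 0.60 ± 0.11 (edgeR adjusted p = 0.000614). Without DSS, Rpa3 had a log2 fold change of -0.03 ± 0.11.

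Of the 5 genes of nucleotide supply, 4 were lower after DSS in WT and 3 were higher after DSS in KO. Ribonucleotide reductase makes deoxyribonucleotides from ribonucleotides, and its subunits Rrm1 and Rrm2 were both called in every comparison. Rrm2 (ENSMUSG00000020649.11, chromosome 12, 24708241 to 24714146) was at 13.1 and 10.0 CPM without and 9.13 and 8.07 CPM with DSS in WT, and at 22.9 and 21.7 without and 32.8 and 35.4 with DSS in KO. No groups overlapped, and DSS-treated KO was highest. After DSS it was 3.96-fold higher in KO (log2 fold change 1.99 ± 0.11, edgeR adjusted p = 7.02e-09), and without DSS 1.92-fold (0.94 ± 0.11, edgeR adjusted p = 5.04e-05). The interaction was 1.05 ± 0.16 (edgeR adjusted p = 0.000407). Its fall after DSS in WT (-0.44 ± 0.13, edgeR adjusted p = 0.0169) was lost without replicate 1 of untreated WT or replicate 2 of DSS-treated WT, with an adjusted p of up to 0.259 over the alternatives.

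Rrm1, the catalytic subunit (chromosome 7, 102441695 to 102469771), was at 48.1 and 47.3 CPM without and 33.0 and 35.0 CPM with DSS in WT, and at 66.1 and 70.8 without and 96 and 97.1 with DSS in KO. The order of the groups was that of Rrm2, again without overlap. By DSS it was lower in WT (-0.49 ± 0.06, edgeR adjusted p = 2.34e-05) and higher in KO (0.50 ± 0.05, edgeR adjusted p = 2.1e-06). The interaction was 0.98 ± 0.08, with the smallest edgeR adjusted p of the 45 genes (1.03e-06). Its promoter held 1 E2F-type core and that of Rrm2 none of those searched.

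Thymidine kinase Tk1, which salvages thymidine, was also higher after DSS in KO (0.51 ± 0.06, edgeR adjusted p = 1.08e-05) and was at -0.18 ± 0.07 in WT (edgeR adjusted p = 0.0638). Thymidylate synthase Tyms and the dUTPase Dut, which keeps uracil out of DNA, did not pass the threshold for DSS in KO, with 0.14 ± 0.07 and 0.03 ± 0.09. Summed, the 5 supply genes were at 138 and 130 CPM without and 100 and 99.9 CPM with DSS in WT, and at 181 and 187 without and 236 and 248 with DSS in KO. Relative to the Mcm sum, this was 0.56 and 0.52 without and 0.70 and 0.72 with DSS in WT, and 0.51 and 0.52 without and 0.70 and 0.74 with DSS in KO. The ratio was thus higher in the DSS-treated libraries of both genotypes.

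Chromatin assembly and upkeep of DNA methylation follow the fork. All 4 of these genes were lower after DSS in WT, and 3 of them, all but Chaf1a, were lower in KO too. Uhrf1 (ENSMUSG00000001228.14, chromosome 17, 56303321 to 56323486) brings the methyltransferase Dnmt1 to newly copied DNA. It was at 33.5 and 34.5 CPM without and 16.2 and 15.5 CPM with DSS in WT, and at 60.3 and 65.3 without and 46.0 and 43.5 with DSS in KO. The groups did not overlap, and in each genotype the DSS-treated libraries were the lower ones. Its log2 fold change by DSS was -1.10 ± 0.07 in WT (edgeR adjusted p = 5.89e-08), the largest fall of the set, and -0.49 ± 0.06 in KO (edgeR adjusted p = 9.4e-06). In KO against WT it was 0.89 ± 0.06 without DSS (edgeR adjusted p = 2.79e-07) and 1.5 ± 0.07 with DSS (edgeR adjusted p = 1.56e-09).

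Dnmt1 was at 72.4 and 72.1 CPM without and 55.2 and 53.0 CPM with DSS in WT, and at 94.5 and 94.5 without and 87.7 and 82.5 with DSS in KO. Its pattern was that of Uhrf1 at smaller size, with 0.39 ± 0.05 in KO without DSS (edgeR adjusted p = 9.74e-05) and 0.65 ± 0.05 with DSS (edgeR adjusted p = 2.08e-07). Chaf1a and Chaf1b encode subunits of the assembly factor that places histones on new DNA. After DSS they were higher in KO by 1.3 ± 0.15 and 1.06 ± 0.12 on the log2 scale. Chaf1a varied most between replicates, with 9.97 and 6.18 CPM in DSS-treated WT, and its interaction of 0.58 ± 0.21 did not pass the threshold (edgeR adjusted p = 0.0621). It overlaps Ubxn6 on the other strand, and the strand setting of the counting is not given in the sources used here.

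**Figure D4:**
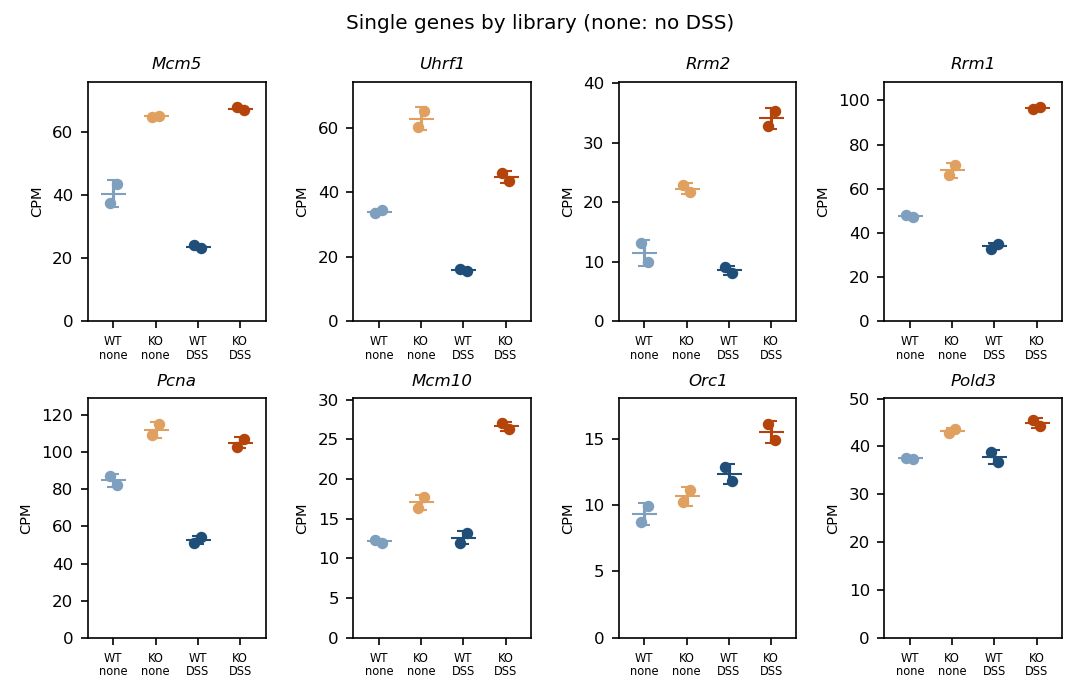
CPM of 8 replication genes in each library, with each point a library, the line the mean of 2 libraries and the bar 1 SD. Mcm5, Uhrf1, Rrm2, Rrm1 and Pcna are lowest in DSS-treated WT, Mcm10 is highest in DSS-treated KO, Orc1 rises from group to group, and Pold3 lies between 36.8 and 45.6 CPM throughout.

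Per unit of length, the members of the machinery were not present at equal levels. On the deposited TPM scale (transcripts-per-million), the mean over the 8 libraries ran from 2.44 for Gins3 to 91.6 for Pcna, with a median of 15.9. Pcna was followed by Rfc2 at 54.2, Tyms at 49.4, Tk1 at 37.5 and Rpa3 at 36.9 TPM. The 6 Mcm genes, whose products form a ring with 1 copy of each, lay between 12.3 TPM for Mcm4 and 35.2 TPM for Mcm7. Cdc6 at 3.57 and Pola1 at 3.74 TPM were next above Gins3. The TPM of a gene body that overlaps another gene can hold reads of its neighbour. Among such genes were Mcm7 (with Ap4m1 and Cops6), Rfc2 (with Lat2) and Tk1 (with Afmid and, over its whole length, Gm20708).

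Genes of the same pathways outside the 45 were counted from lists. Their counts are to be read beside the shares of all genes tested. In KO against WT these were 9.19% higher and 6.22% lower without DSS, and 21.3% and 17.7% with DSS. By DSS they were 18.9% and 18.3% in WT, and 21.7% and 19.8% in KO. For the interaction they were 10.8% positive and 10.6% negative. Of 26 other replisome and fork genes, 13 were higher in KO without DSS, 20 with DSS and none lower in either. In WT, 15 were lower after DSS and Dbf4, which activates the kinase that fires origins, was higher. In KO, 3 of the 26 were higher and 4 were lower, both below the shares of all genes tested. The interaction was positive for 10 and negative for none of those called. The median log2 fold changes of KO over WT were 0.33 without DSS and 0.77 with DSS. Without replicate 1 of untreated KO, the first count was 8, and without replicate 2 of untreated KO or replicate 1 of DSS-treated KO, the 4 lower genes in KO were 2. Pclaf, a Pcna partner, was at 1.85 ± 0.08 in KO after DSS (edgeR adjusted p = 9.53e-10) with an interaction of 1.3 ± 0.12 (edgeR adjusted p = 4.07e-06). Timeless, which steadies the fork, was lower after DSS in both genotypes, at -1.20 ± 0.11 in WT (edgeR adjusted p = 1.81e-06) and -0.49 ± 0.09 in KO (edgeR adjusted p = 0.000658).

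The synthesis of ribonucleotides lies upstream of Rrm1 and Rrm2. Of 29 purine and pyrimidine genes, 8 were higher and 2 lower in KO without DSS, and 19 were higher and none lower with DSS, with medians of 0.14 and 0.29. The 8 fell to between 2 and 4 without any 1 of the 4 untreated libraries, and the 2 were 1 without replicate 2 of untreated WT or replicate 1 of untreated KO, and 3 without either library of DSS-treated KO. After DSS, 16 were lower in WT and 10 in KO, and 1 and 4 were higher. The 1 was lost without replicate 1 of untreated WT, and the 4 were 2 without replicate 2 of untreated KO. The interaction was positive for 8, and for 5 without replicate 1 or 2 of untreated KO or replicate 1 of DSS-treated WT. The mitochondrial serine enzyme Shmt2, a source of one-carbon units, did not differ by call without DSS (0.10 ± 0.07) and was higher in KO after DSS (1.14 ± 0.07, edgeR adjusted p = 1.3e-08). Paics, an enzyme of purine synthesis, was lower in KO without DSS (-0.37 ± 0.04, edgeR adjusted p = 6.45e-05).

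Among 28 tested regulators of entry into S phase, 14 were higher and 3 lower in KO without DSS, and 19 were higher and 4 lower with DSS. Without DSS the higher count was 10 to 18 when single libraries were left out, and the 3 lower genes were 1 without any 1 of the 6 libraries outside DSS-treated KO. In WT, 5 were higher and 15 lower after DSS, and the 15 were 9 without replicate 2 of untreated WT. In KO, 5 were higher and 7 lower, near the shares of all genes tested (21.7% and 19.8%). The cyclin Ccna2, which drives S phase, was higher in KO by 0.58 ± 0.06 without DSS (edgeR adjusted p = 3.02e-05) and by 1.41 ± 0.06 with DSS (edgeR adjusted p = 3.38e-10). The transcription factor E2f2 was higher after DSS in both genotypes, at 0.97 ± 0.10 in WT (edgeR adjusted p = 2.87e-06) and 1.45 ± 0.08 in KO (edgeR adjusted p = 2.6e-09). E2f1, named after its values were seen, was lower in both, at -1.08 ± 0.15 (edgeR adjusted p = 6.13e-05) and -0.77 ± 0.13 (edgeR adjusted p = 0.000192).

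Mitosis genes act after replication is complete. In WT, 7 of 20 were higher after DSS and only Aurkb was lower, against 1 and 37 of the 45 replication genes. These were 5 and 0 without replicate 2 of untreated WT or replicate 1 of DSS-treated WT. In KO all 20 were higher after DSS, with a median log2 fold change of 0.79 against 0.03 for the replication genes. In KO against WT, 18 were higher without DSS and 20 with DSS, and the 18 fell to 11 without replicate 1 of untreated WT and to 10 without replicate 2 of untreated KO. Top2a, the topoisomerase that untangles sister chromosomes, was at 0.00 ± 0.06 by DSS in WT (edgeR adjusted p = 0.994) and 0.79 ± 0.05 in KO (edgeR adjusted p = 1.92e-08). Summed, the mitosis list was at 527 and 527 CPM without and 599 and 596 CPM with DSS in WT, and at 748 and 746 without and 1280 and 1238 with DSS in KO. The ratio of summed replication genes to this list was 2.19 and 2.17 without and 1.34 and 1.32 with DSS in WT, and 2.02 and 2.05 without and 1.18 and 1.23 with DSS in KO. The ratio was therefore lower in all 4 DSS-treated libraries than in all 4 untreated ones, whichever the genotype. No test of the difference between the lists was made.

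**Figure D5:**
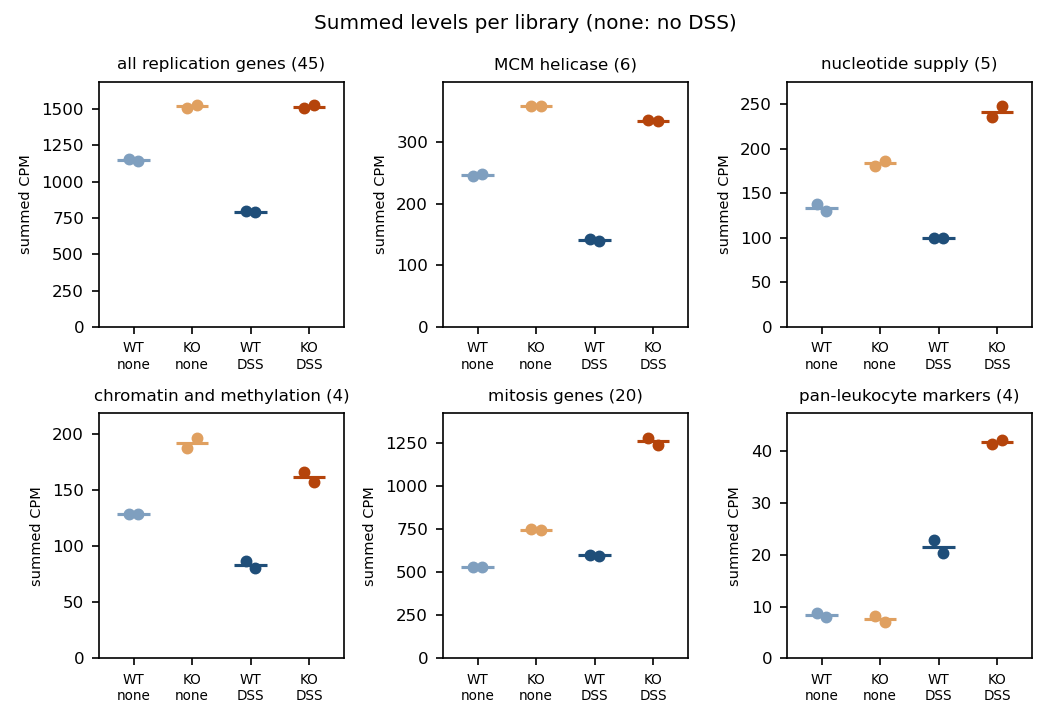
Summed CPM per library (points, with the mean of 2 libraries as a line) of all 45 replication genes, 3 of their role groups, 20 mitosis genes and 4 pan-leukocyte markers, by genotype and treatment. The replication sum is lowest in DSS-treated WT (801 and 788 CPM), whereas the mitosis and leukocyte sums are highest in DSS-treated KO.

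The markers of crypt stem and progenitor cells were called in both directions. Their summed level stood at 655 and 674 CPM without and 836 and 827 CPM with DSS in WT, and at 676 and 683 without and 767 and 741 with DSS in KO. Prom1 alone went from 180 and 184 CPM to 336 and 335 CPM with DSS in WT, which was most of the rise of that sum. Of 9 tested, 4 were higher and 4 lower after DSS in WT, with a median log2 fold change of -0.09, and Lgr5, Ascl2, Axin2 and Sox9 were the lower ones. In KO against WT, 2 were higher and 3 lower without DSS, and 1 was higher and 4 lower with DSS. The marker counts here are to be read beside the shares of all genes tested. By DSS these were 18.9% higher and 18.3% lower in WT, and 21.7% and 19.8% in KO. In KO against WT they were 9.19% and 6.22% without DSS, and 21.3% and 17.7% with DSS. Markers of surface colonocytes summed to between 13095 and 13906 CPM in the untreated libraries, 10849 and 10819 CPM in DSS-treated WT, and 9404 and 9291 CPM in DSS-treated KO. Macrophage and monocyte markers summed to between 9.49 and 10.1 CPM in the untreated libraries, 30.3 and 29.6 CPM in DSS-treated WT, and 58.1 and 60.4 CPM in DSS-treated KO. Fibroblast markers summed to 7.41 and 6.61 CPM without and 5.05 and 5.24 CPM with DSS in WT. In KO they summed to 10.6 and 11.3 CPM without and 11.1 and 10.9 CPM with DSS. In CPM, DSS-treated WT was thus the low group and the KO groups overlapped, as for the summed replication genes. In TPM the KO groups overlapped for neither sum, and the directions were opposite. There the fibroblast sum in KO was 7.4 and 7.81 without and 6.79 and 6.56 with DSS. The replication sum in KO was 1034 and 1036 without and 1155 and 1164 with DSS. Of 4 fibroblast markers tested, 2 were higher in KO without DSS (median log2 fold change 0.42) and all 4 with DSS (1.5). In WT 1 of them, Dcn, was lower after DSS, and in KO 3 were higher and Dcn was lower. Endothelial markers summed to 11.9 and 10.4 CPM without and 8.17 and 9.01 CPM with DSS in WT, and to 7.37 and 7.59 without and 6.39 and 5.67 with DSS in KO. Goblet cell markers summed to between 16404 and 17135 CPM in the untreated libraries. With DSS they summed to 9728 and 9433 CPM in WT and 7640 and 7626 CPM in KO. Erythroid markers, at 67.8 to 73 CPM untreated, were at 160 and 162 CPM with DSS in WT and 89 and 96.7 in KO. B and plasma cell markers were at 1.46 to 3.35 CPM untreated. With DSS these were at 9.85 and 10.8 CPM in WT and 7.36 and 7.9 in KO. The part of these cell types in the levels of the replication genes was not tested.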

How the data were processed

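RNA of 8 libraries was analysed from the deposited gene tables. The authors deposited RSEM's expected count of each gene, which divides reads that map to more than 1 place, and TPM values beside it. STAR 2.5.3a, RSEM 1.3.0, the build mm10 and DESeq2 1.18.1 are named in the submitters' processing notes. The annotation release and the strand setting are not given in the sources used here.

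Expected counts were rounded in R 4.3.3, genes low in counts were removed with filterByExpr, and libraries were scaled by TMM in edgeR 4.0.16. All 8 libraries entered a single quasi-likelihood fit with 1 mean for each group (4 residual degrees of freedom). Tests were two-sided, with Benjamini-Hochberg adjustment over the 14991 genes of each comparison and a threshold of 0.05. The SE is the size of the log2 fold change over the root of its F statistic. The procedure was tested on simulated data. TPM was used for levels between genes. Exact permutation of 2 against 2 libraries cannot go below p = 0.333, so sums are given without a test. Replicates differed by more than counting error (chi-square per degree of freedom 1.29 to 5.25). The common coefficient of variation fitted by edgeR was small, at 3.49%, and whether this spread is one between animals is not known. Alternatives were DESeq2 1.42.0 (its size factors and its Wald test), no filter on low counts, effective-length offsets, only the 4 libraries compared, a replicate block, leaving out each library, and TPM sums.

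Positions are those of GENCODE M21. Any of the 45 genes could be named. Values per library are given for the most abundant gene of each role, the one with the smallest p in KO against WT without DSS, the 3 largest changes in each other comparison and genes called against the majority, and for others chosen for their role. Genes of the other pathway lists were named by the smallest p. The members, lists and rules were chosen with earlier results of these data known.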

Additional observations from a re-analysis of the deposited data

Results flagged for a closer look

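The change by DSS differed between the genotypes for 36 of the 45 replication genes, by the interaction in edgeR (adjusted p below 0.05), and each difference was positive. The values are log2 fold changes by DSS in KO minus those in WT. In the Mcm helicase they were 0.44 for Mcm2, 1.00 for Mcm3, 0.74 for Mcm4, 0.82 for Mcm5, 0.67 for Mcm6 and 0.65 for Mcm7. In origin licensing they were 0.55 for Orc6, 0.91 for Cdc6 and 0.52 for Cdt1. In helicase activation they were 0.59 for Mcm10, 0.82 for Cdc45 and 0.44 for Gins4. In polymerase alpha-primase they were 0.66 for Pola1, 0.36 for Pola2, 0.56 for Prim1 and 0.93 for Prim2. In polymerases delta and epsilon they were 0.40 for Pold1, 0.64 for Pole and 1.11 for Pole2. In the clamp and its loader they were 0.60 for Pcna, 0.67 for Rfc3, 0.76 for Rfc4 and 0.47 for Rfc5. In Okazaki fragment joining they were 0.83 for Fen1 and 0.86 for Lig1. In single-strand DNA binding they were 0.46 for Rpa1, 1.00 for Rpa2 and 0.63 for Rpa3. In nucleotide supply they were 0.98 for Rrm1, 1.05 for Rrm2, 0.60 for Tyms, 0.69 for Tk1 and 0.57 for Dut. In chromatin assembly and methylation upkeep they were 0.61 for Uhrf1, 0.27 for Dnmt1 and 0.51 for Chaf1b.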

How the results depend on the processing

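Of 225 results of single replication genes, 169 were called. None of the called ones changed direction in any alternative, and 54 lost the call in at least 1. Called in every alternative were 16 genes in KO against WT without DSS, 40 in KO against WT after DSS, 26 for DSS in WT, 11 for DSS in KO and 22 for the interaction. Leaving out 1 library at a time, higher genes in KO without DSS numbered 21 to 35, higher genes after DSS in WT 0 to 1, and the median log2 fold change by DSS in KO was -0.05 to 0.05. The 21 came without replicate 2 of untreated KO. With the DESeq2 Wald test, no gene was higher after DSS in WT, 22 were higher in KO without DSS and 24 had a positive interaction. Effective-length offsets gave 23 higher genes in KO without DSS. The number of all genes called in each alternative, leaving out a library included, is not given here. These counts therefore do not show whether the replication genes lost calls more often than genes in general. With sums of TPM, the ratio of DSS-treated to untreated WT was 0.758 (0.692 with CPM), and that of DSS-treated KO to untreated WT was 1.47 (1.32 with CPM). With the DESeq2 Wald test and with offsets, other fork genes lower after DSS in WT numbered 8 and 7 (15 in edgeR) and those with a positive interaction 6 and 3 (10). Purine and pyrimidine genes higher in KO without DSS numbered 3 and 4 (8), and those with a positive interaction 4 and 4 (8). G1/S regulators lower after DSS in WT numbered 9 and 9 (15), and with offsets 3 mitosis genes were higher after DSS in WT (7). The cause was not tested.

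Signs changed only for values that were not called. In KO against WT without DSS, sign changes came for Rfc3 at -0.00 with no filter. In KO against WT without DSS, with 1 library left out, Pole2 ran from -0.10 to 0.23, Rfc3 ran from -0.05 to 0.09 and Rpa3 ran from -0.09 to 0.02. For DSS in WT, sign changes came for Pold3 at -0.01 with no filter, Mcm10 at -0.10 with offsets and Gins3 at 0.06 with offsets. For DSS in WT, with 1 library left out, Pold3 ran from -0.03 to 0.05 and Mcm10 ran from -0.01 to 0.12. For DSS in KO, sign changes came for Pole2 at -0.03 with offsets and Rpa1 at 0.03 with offsets. For DSS in KO, with 1 library left out, Lig1 ran from -0.01 to 0.07, Dut ran from -0.06 to 0.12, Rpa1 ran from -0.10 to 0.05, Chaf1a ran from -0.15 to 0.05, Orc6 ran from -0.10 to 0.16, Pola2 ran from -0.16 to 0.00 and Rfc1 ran from -0.01 to 0.10. For the interaction, sign changes came for Pold2 at -0.16 with offsets and Pold3 at -0.05 with offsets. For the interaction, with 1 library left out, Pold2 ran from -0.12 to 0.16 and Gins3 ran from -0.11 to 0.04.

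The labels number the replicates 1 and 2 in each group without saying that a number pairs them. Same-numbered libraries deviated together with correlations of -0.27 to 0.31 over 10572 genes. With the replicate number as a block, 31 genes were higher in KO without DSS.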
